A study of Mus musculus with 8 samples.

Results

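The 10 genes described here are Lif, Lifr, Osm, Osmr, Clcf1, Ctf1, Csf1, Csf2, Csf3 and Csf3r, which encode leukemia inhibitory factor, oncostatin M, related cytokines, the colony-stimulating factors and some of their receptors. They were taken by name from a table of read counts per gene in mouse kidney, and a gene could be used where its row held 1 count for each of the 8 libraries. This left 4 of the 10 genes, out of 35880 rows used and 53715 rows in the table. The ligand genes Lif and Csf3 and the receptor genes Osmr and Csf3r could be used. Lifr, Osm, Clcf1, Ctf1, Csf1 and Csf2 had rows of 10 values, which the 8 named libraries do not account for, and no level is given for them. The genes were chosen by their measured change between the cisplatin and control libraries, that is, with results of the same comparison known, so their values are given as a description, without a p-value.

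The libraries came from kidneys of 4 control and 4 cisplatin-treated mice, all labelled WT, and the study's methods describe male C57/BL6J mice that received saline or a single intraperitoneal dose of cisplatin at 23 mg/kg. Kidneys were taken at 72 h. Cisplatin, a platinum drug given against solid tumours, is toxic to the kidney tubule, and whole-kidney RNA mixes tubule, vessel, stromal and immune cells. The labels number the controls 1, 2, 3 and 5 and the cisplatin-treated mice 1, 3, 4 and 6.

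Leukemia inhibitory factor and oncostatin M belong to the interleukin-6 family, whose receptors share the subunit gp130, encoded by Il6st. Leukemia inhibitory factor joins LIFR with gp130, while oncostatin M joins OSMR with gp130, and both complexes act through JAK kinases and the transcription factor STAT3, which induces its own inhibitor SOCS3. Granulocyte colony-stimulating factor, the product of Csf3, acts through a separate receptor, encoded by Csf3r, that is carried mainly by neutrophils and their precursors. In injured epithelium these cytokines are known as signals between damaged cells, stroma and incoming leukocytes.

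Total counts over the rows used were 13539665 to 16201443 in the controls and 10953338 to 16701599 in the cisplatin-treated kidneys. Levels are CPM, counts scaled to a common library size by TMM normalization, on which 3 counts, the smallest level taken as measurable, equal 0.136 to 0.266 CPM. The first principal component held 74.4% of the variance and separated the groups. The second held 15.5% and placed controls 1, 2 and 3 with cisplatin 1 and 3, called the first library set below, apart from control 5 with cisplatin 4 and 6, the second set. These sets are a feature of the data and not of the labels. Cisplatin 1 and 3 had 5 and 0 counts on the Y-linked genes Kdm5d and Eif2s3y, where the other 6 libraries had 815 to 1879, although the methods describe male mice. Results are therefore also given without these libraries. They are also the only cisplatin libraries of the first set, so library set and lack of Y-linked counts cannot be told apart within the cisplatin group. The kidney label was borne out by 11 of 11 proximal tubule marker genes, which summed to 29990 to 39140 CPM in the controls, against 793 to 2670 CPM after cisplatin.

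All 4 genes stood higher in every cisplatin-treated kidney than in any control (a pattern that 23.7% of the 9141 genes tested showed), and 3 of them, Lif, Osmr and Csf3, passed the threshold for a gene called higher, an adjusted p under 0.05 and a log2 fold change of at least 1 by edgeR. Of all genes tested, 19.2% were called higher and 15.7% lower. Because this comparison chose the genes, nothing is read from their count.

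**Figure D1:**
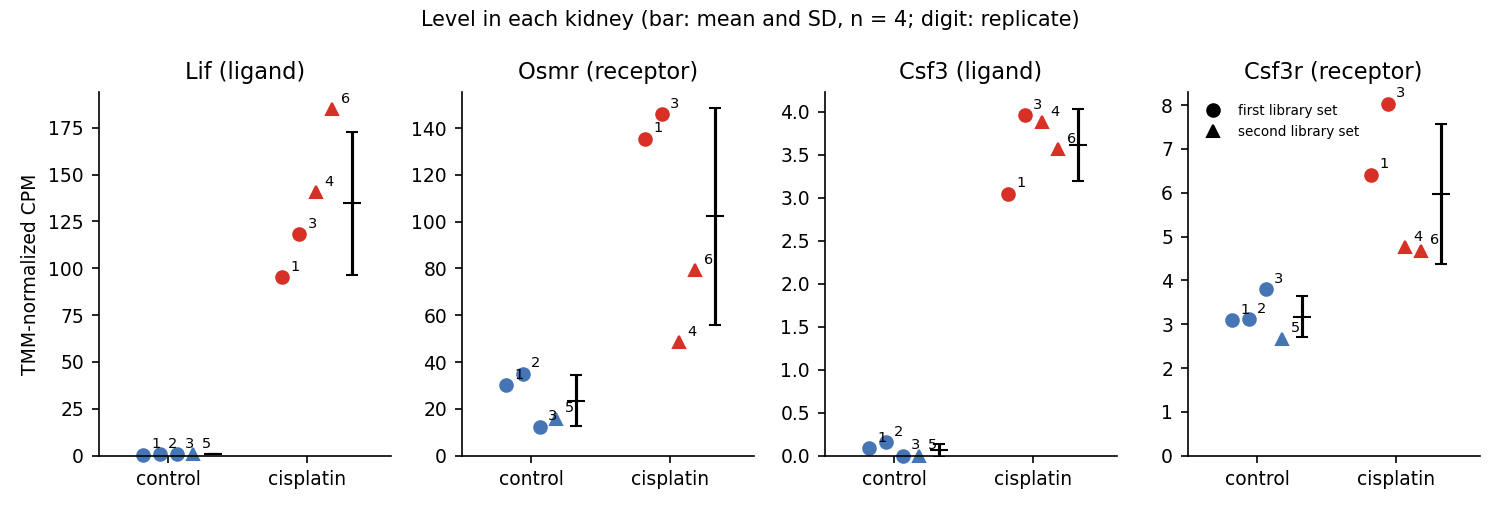
Level of each gene in each kidney, in TMM-normalized CPM on a linear axis from 0, for control (blue) and cisplatin (red) libraries, with the mean and SD of 4 libraries as a bar and the replicate number beside each point. Circles mark the first library set and triangles the second. The groups do not overlap for any of the 4 genes, and Lif runs from 95.2 to 185 CPM after cisplatin. Osmr and Csf3r are higher in the circles than in the triangles of the cisplatin group, as 36.2% of all genes tested were.

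Lif, the first of the 2 ligand genes with a usable row, lies on the plus strand of chromosome 11, from 4257557 to 4272514 in GRCm38, with 3 transcripts of at most 4 exons in GENCODE M21. The RefSeq promoter table holds a window for 3 of the 4 usable genes (none for Csf3), and stretches of 2 are shown because Lif and Csf3r held matches to motifs of factors that act in cytokine and injury signalling. The window searched ran 250 bases upstream of the RefSeq start, on both strands. In the stretch before Lif, chr11:4257318-4257556 on the plus strand of GRCm38.p6, capitals mark the single motif match, TGACTCA, for AP-1 (TGANTCA), at -228 to -222 from the start; the same letters match on both strands.
Lif: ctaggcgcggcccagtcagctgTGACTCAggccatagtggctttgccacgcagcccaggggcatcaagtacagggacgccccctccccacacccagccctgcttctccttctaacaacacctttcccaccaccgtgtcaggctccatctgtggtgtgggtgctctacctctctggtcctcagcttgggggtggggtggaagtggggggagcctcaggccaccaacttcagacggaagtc
In the stretch before Csf3r, chr4:126024409-126024549 on the plus strand, the first capitals mark a C/EBP match, TTGCTACAA, at -166 to -158, and the second an NF-kappa B match read on the opposite strand, at -129 to -120. Positions count from the RefSeq start, which lies within the GENCODE M21 gene. The 109 bases next to that start for Csf3r, and 11 for Lif, lie in GENCODE M21 exons and are not shown.
Csf3r: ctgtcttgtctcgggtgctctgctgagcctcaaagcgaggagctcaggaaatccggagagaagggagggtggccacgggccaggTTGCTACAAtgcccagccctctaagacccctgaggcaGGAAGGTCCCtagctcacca
Among 32851 promoters with a window of this length, 6.75% held an AP-1 match, 1.9% a C/EBP match (TTGCGCAA or TTGCNNCAA) and 8.26% an NF-kappa B match (GGGNNTTCC, or the same letters with 1 further N). A STAT match (TTCNNNGAA), present in 7.02% of promoters, was found in none of the 3 windows, and the Osmr window held no match to any of the 4 motifs. A match is a description of the letters and says nothing of binding, and no match says only that the letters are absent from the window. The Osmr window lies wholly within exons of GENCODE M21, so it is not shown.

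Lif counts were 7, 12, 9 and 11 in controls 1, 2, 3 and 5, and 2093, 2150, 1921 and 2332 in cisplatin 1, 3, 4 and 6. As levels these were 0.62, 0.957, 0.683 and 0.865 CPM in the controls and 95.2, 118, 141 and 185 CPM after cisplatin. The lowest cisplatin level was 99.4 times the highest control level, and the ranges did not overlap. The means were 0.781 ± 0.157 CPM (SD, n = 4) and 135 ± 38.3 CPM (SD, n = 4). The log2 fold change was 7.41 with a standard error (SE) of 0.30, the 48th largest of the genes tested. Since only 2 of the 4 controls had 10 counts or more, Lif passed the filter on low counts only through the cisplatin group. By level within a library, Lif ranked between 8298.5 and 8618.5 of 9141 genes in the controls and between 875 and 1562 after cisplatin. Without the Y-lacking cisplatin libraries its log2 fold change was 7.69 (SE 0.21).

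The Lif level in the cisplatin group was highest in mouse 6, then 4, 3 and 1. The summed neutrophil, B cell and proximal tubule markers had the same order in this group, and so did Lif scaled by total counts alone, at 125, 148, 162 and 213 CPM for cisplatin 1, 3, 4 and 6. This order also puts both libraries of the second set above both of the first. Between the groups the proximal tubule sum fell while Lif rose, from a mean of 34000 CPM in the controls to 1690 CPM after cisplatin. In bulk RNA, more cells of a type and more RNA per cell cannot be told apart. The B cell markers, 2 of 5 usable, summed to 2.04 to 2.88 CPM in the controls and 4.46 to 11.5 CPM after cisplatin, and Cd79a alone moved (1.02 to 5.5 CPM by group mean), while Cd79b was at 1.51 and 1.65 CPM and was not called. In the controls the Lif order, 2, 5, 3 and 1, was shared by none of these sums. The part of these cell types in the Lif order was not tested.

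Csf3, the other ligand gene, encodes granulocyte colony-stimulating factor and lies on the plus strand of chromosome 11, from 98701263 to 98703629, with 1 transcript of 5 exons. Its counts were 1, 2, 0 and 0 in controls 1, 2, 3 and 5 and 67, 72, 53 and 45 in cisplatin 1, 3, 4 and 6. No control reached the floor of 3 counts. After cisplatin the level was 3.05, 3.96, 3.88 and 3.57 CPM, a mean of 3.61 ± 0.414 CPM (SD, n = 4), which is at least 13.6-fold higher than 3 counts in the shallowest control. The lowest cisplatin library alone was at least 11.5-fold above it. Csf3 passed the filter on low counts only through the cisplatin group, since no control had 10 counts, so it had to differ to be tested at all. The filter asks for about 10 counts in 4 libraries, the size of a group. For Lif, 2 of the 4 controls had 10 counts or more, so Lif too was tested only through its cisplatin libraries. Its fit carries the same limit, although its controls, at 7 to 12 counts, lay above the floor of 3.

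The coefficient of variation of Csf3 among the cisplatin-treated kidneys was 11.4%, where counting error alone at these counts gives 13.2%, so variation between kidneys was not detectable at this depth. The coefficient of variation for Lif was 28.4%, where counting error alone gives 2.18%.

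Osmr, which encodes the oncostatin M receptor subunit that pairs with gp130, lies on the minus strand of chromosome 15, from 6813577 to 6874969, with 6 transcripts of at most 18 exons. Its counts were 342, 439, 164 and 202 in controls 1, 2, 3 and 5 and 2980, 2654, 661 and 1000 in cisplatin 1, 3, 4 and 6. The levels were 30.3, 35.0, 12.4 and 15.9 CPM in the controls and 136, 146, 48.4 and 79.3 CPM after cisplatin. The lowest cisplatin library was 1.38 times the highest control. The means were 23.4 ± 10.9 and 102 ± 46.4 CPM (SD, n = 4 each), and the log2 fold change was 2.13 (SE 0.43). Without the Y-lacking libraries, cisplatin 1 and 3, it was 1.44 (SE 0.42).

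The cisplatin libraries fell in 2 pairs for Osmr, with cisplatin 1 and 3 at 2.2 times the mean of cisplatin 4 and 6. Of all genes tested, 8.91% had a higher ratio of the first to the second set. The coefficient of variation in the cisplatin group was 45.3%, which 9.23% of 1918 genes of like level exceeded. The controls also spread, with the order 2, 1, 5 and 3. Within the first library set Osmr was 5.43-fold higher after cisplatin, and within the second, with 1 control, 4.02-fold.

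The stromal markers that could be used, Col1a1, Col3a1, Postn and Lum, were 4 of the 9 listed. They summed to 999.7, 921.8, 209.6 and 682.1 CPM in cisplatin 1, 3, 4 and 6 and 145.6, 139.9, 33.98 and 55.28 CPM in controls 1, 2, 3 and 5. The sum was 34 to 146 CPM in the controls and 210 to 1000 CPM in the cisplatin group, so it also did not overlap between the groups. In both groups the 2 libraries with the most Osmr were the 2 with the most of these markers, and the 2 with the least were the same, although the order within the top pair was reversed. The cisplatin part of this was not particular to stroma. Summed podocyte markers had the Osmr order there, and T and NK cell and distal nephron markers were also highest in cisplatin 1 and 3. In the controls none of these other sums had the top pair of Osmr. Lum and Postn were not called, at log2 fold changes of 0.83 (SE 0.83) and 1.01 (SE 0.59). Postn reached the fold of 1 but had an adjusted p of 0.184 by edgeR. The part of stromal cells in the Osmr result was not tested.

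Csf3r encodes the receptor for granulocyte colony-stimulating factor and lies on the plus strand of chromosome 4, from 126024550 to 126044440, with 4 transcripts of at most 17 exons. Its counts were 35, 39, 50 and 34 in controls 1, 2, 3 and 5 and 141, 146, 65 and 59 in cisplatin 1, 3, 4 and 6. Its levels were 3.10, 3.11, 3.79 and 2.67 CPM in the controls and 6.41, 8.03, 4.76 and 4.68 CPM after cisplatin. The ranges did not overlap, with the lowest cisplatin library at 1.23 times the highest control. The means were 3.17 ± 0.463 and 5.97 ± 1.59 CPM (SD, n = 4 each). The log2 fold change was 0.91 (SE 0.28), below the fold of 1 set for a call, so Csf3r was not called. With the library set as a covariate it was 1.01 (SE 0.21) and in the first set alone 1.06 (SE 0.24), and it was then called, as it was under 5 other alternatives. Without cisplatin 1 and 3 it was 0.58 (SE 0.26).

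Csf3r is itself a neutrophil marker. Of 15 neutrophil markers listed, 9 could be used, Csf3r included. The other 8, with Mpo, which encodes a granule enzyme of neutrophils and their precursors, at 0 in every library, summed to 1.74 to 5.50 CPM in the controls and to 13.8, 20.7, 24.5 and 31.5 CPM in cisplatin 1, 3, 4 and 6. Within the cisplatin group the sum and Csf3r did not share an order, since Csf3r was higher in cisplatin 1 and 3 than in 4 and 6. This split was common, as 36.2% of all genes tested showed it. A higher ratio of the first to the second set than that of Csf3r was found in 23.3%. The mean sum was 7.07 times higher after cisplatin, while the Csf3r mean went from 3.17 to 5.97 CPM. The largest parts of the control sum were Mmp9 and S100a9, at means of 1.16 and 0.946 CPM and at most 22 and 28 counts. The others rest on few counts in the controls, at most 2 for Retnlg, 3 for Il1r2, 5 for Mmp8, 7 for S100a8 and 8 for Cxcr2. Of the 7 neutrophil markers tested, Csf3r included, 5 were called higher, where 19.2% of all genes tested were. These 5, S100a8, S100a9, Cxcr2, Retnlg and Il1r2, passed the filter on low counts only through the cisplatin group. Their calls carry that limit. Mmp9, with 9 to 22 counts in the controls, was not called, at 0.75, and Mmp8 was not tested. The part of neutrophil number in the Csf3r and Csf3 values was not tested.

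**Figure D2:**
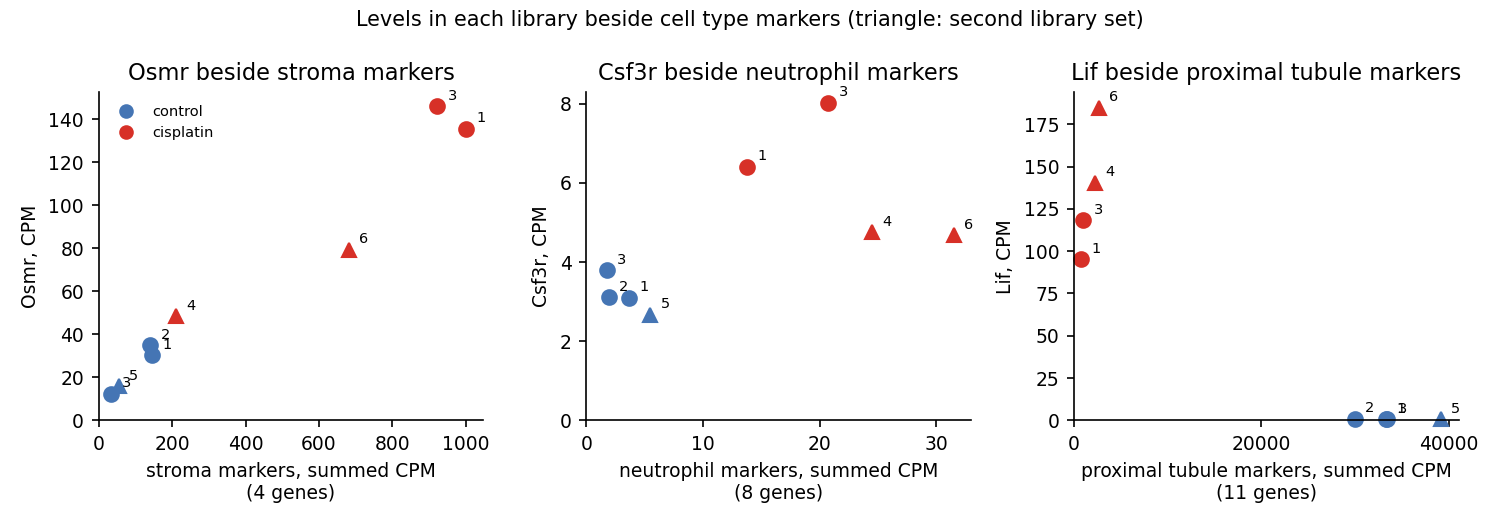
Level of Osmr, Csf3r and Lif in each library against the summed level of stromal, neutrophil (without Csf3r) and proximal tubule markers, all in TMM-normalized CPM on linear axes from 0, with controls in blue, cisplatin in red, circles for the first library set, triangles for the second and the replicate number beside each point. Osmr is highest in cisplatin 1 and 3, which also have the highest stromal sums, while Csf3r is lower in cisplatin 4 and 6, which have the highest neutrophil sums.

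For a ligand set beside a receptor, levels were divided by the gene length in the table, so they are CPM per kilobase. Lif went from 0.18 ± 0.036 to 31 ± 8.79 CPM per kilobase, Osmr from 1.93 ± 0.903 to 8.44 ± 3.83, Csf3 from 0.0439 to 2.56 ± 0.293 and Csf3r from 0.878 ± 0.128 to 1.65 ± 0.44 (SD, n = 4). In the controls both receptor genes stood above both ligand genes. After cisplatin the order was Lif, Osmr, Csf3 and Csf3r.

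Csf3 and Csf3r are the only ligand and receptor among the usable genes that bind each other. Their ratio per kilobase was 0.073, 0.131, 0 and 0 in controls 1, 2, 3 and 5, all on counts under the floor, and at most 0.225 in a control if its Csf3 count were taken as 3. After cisplatin it was 1.21, 1.26, 2.08 and 1.95 in mice 1, 3, 4 and 6, a mean log2 ratio of 0.66 ± 0.41 (SD, n = 4). Lif and Osmr are not a binding pair, since leukemia inhibitory factor acts through LIFR. Their ratio was 0.057, 0.0761, 0.153 and 0.152 in the controls and 1.96, 2.26, 8.09 and 6.49 after cisplatin. The log2 mean went from -3.32 ± 0.72 to 1.96 ± 1.04 (SD, n = 4 each), a difference of 5.28.

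**Figure D3:**
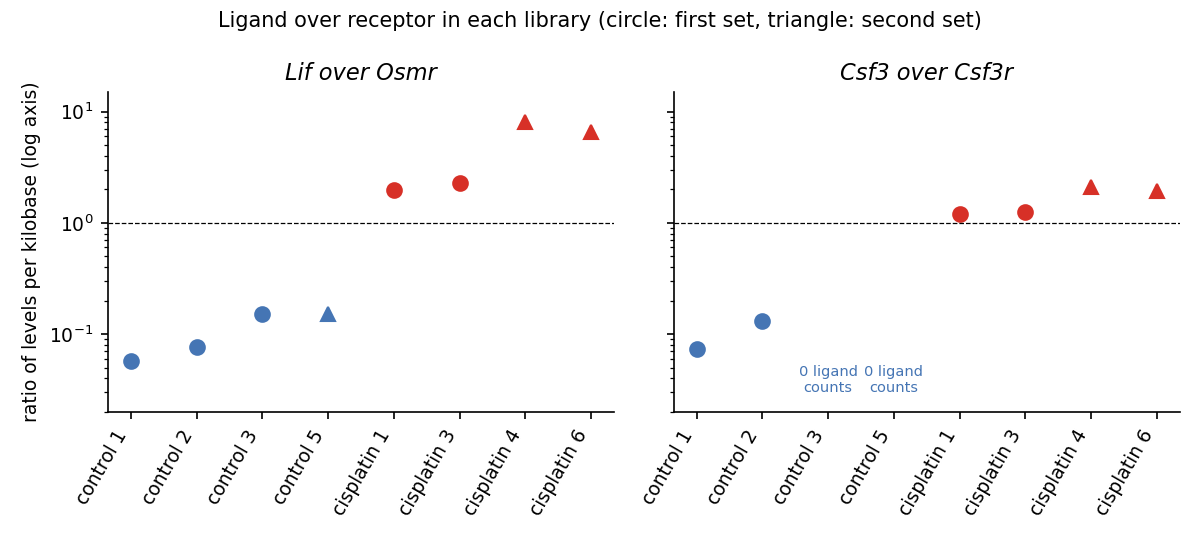
Ratio of ligand to receptor in each library, from levels per kilobase, on a log axis, for Lif over Osmr and Csf3 over Csf3r, with controls in blue, cisplatin in red, circles for the first library set, triangles for the second and a dashed line at a ratio of 1. Every cisplatin library lies above the line, every control with a Csf3 count lies below it, and controls 3 and 5 had 0 Csf3 counts and so have no point.

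Other genes of these pathways came from 6 lists. Of 79 named genes, 37 had a usable row and 35 passed the filter. By edgeR, 16 were called higher, 2 lower and 17 were not called, and the median log2 fold change was 0.68, beside 0.08 over all genes tested. The share called higher was 45.7%, beside the 19.2% of all genes. The lists were written with results of these data known, so the counts describe the lists and are no independent evidence.

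Among the ligands of gp130 receptors, 2 of 7 could be used. Il11, which encodes a gp130 cytokine made by stroma and injured epithelium, was at 0.354, 0.399, 0.152 and 0.0786 CPM in controls 1, 2, 3 and 5 and at 3.96, 3.79, 6.30 and 16.1 CPM in cisplatin 1, 3, 4 and 6. Its counts were 4, 5, 2 and 1 in the controls and 69 to 203 after cisplatin. It was called higher by edgeR, but it passed the filter on low counts only through the cisplatin group and 2 controls lay under 3 counts, so it had to differ to be tested and no fitted fold is given. It was highest in cisplatin 6, as was Lif. Il31 had no count in any library.

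Of 6 receptor subunits, Il6ra and Il27ra could be used, while Il6st, the shared subunit, could not. Il6ra, the interleukin-6 receptor, rose by 1.47 on the log2 scale (SE 0.31, adjusted p = 0.00373 by edgeR). It was higher in cisplatin 1 and 3, at 40.9 and 38.2 CPM, than in 4 and 6, at 17.6 and 20.5 CPM, a split that 36.2% of all genes tested showed. Il27ra was not called, at 0.54. In the colony-stimulating factor system, Il34, which encodes a second ligand of the CSF1 receptor, rose by 1.46 (SE 0.19, adjusted p = 0.000215 by edgeR), from 36.5 to 57.3 CPM in the controls to 106 to 147 CPM after cisplatin. Epor, the erythropoietin receptor, rose by 1.45. The other 5 genes tested there were not called: Csf2ra (0.20), Kitl (0.64), Kit (-0.35), Flt3 (-1.25) and Thpo (-0.83).

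**Figure D4:**
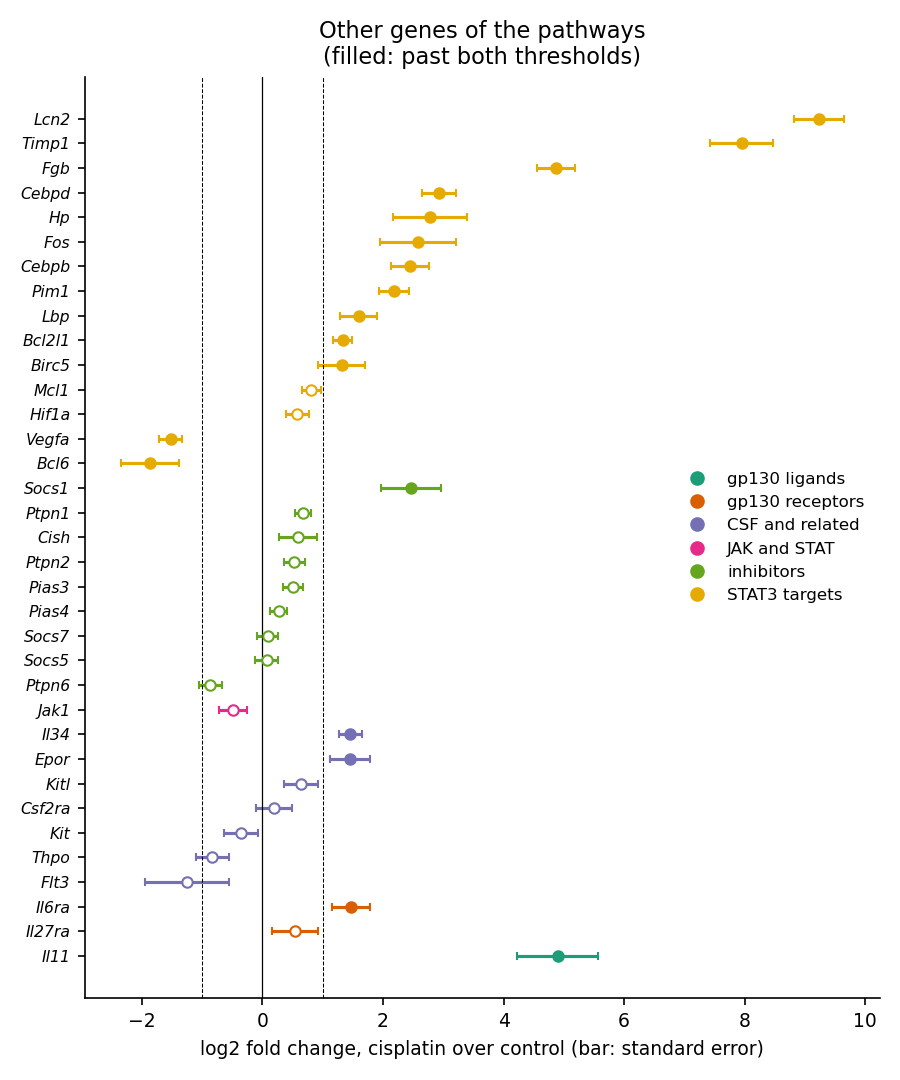
Log2 fold change, cisplatin over control, of each pathway gene tested, with its SE as a bar and a colour for each list. Filled points passed both thresholds and open points did not. The solid line is at 0 and the dashed lines are at a log2 fold change of 1 in each direction. Of the 35 genes, 16 were called higher and 2 lower, where 19.2% and 15.7% of all genes tested were. The values of Il11 and Timp1 rest on controls under 10 counts, and those of Socs1 and Hp on controls partly under 10.

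Signal components were less often usable. In the JAK and STAT list 1 of 11 genes was tested, Jak1, which was not called, at -0.49, while Jak2 and Stat3 had no usable row. Of the 9 tested genes for feedback inhibitors, Socs1, which encodes an inhibitor of JAK kinases, was the 1 called, at 2.47 (SE 0.50, adjusted p = 0.00285 by edgeR). Its controls held 7, 5, 15 and 9 counts, so it passed the filter on low counts only through the cisplatin group. It had to differ to be tested, and its p-value is read with that limit. Socs3 could not be used.

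Genes reported as STAT3 targets were called higher in 11 of 15 cases and lower in 2. Of all genes tested, 19.2% were called higher and 15.7% lower. The list was written with results of these data known, so its count is a description only. Lcn2, which encodes the tubular injury marker lipocalin-2, rose by 9.23 on the log2 scale. Timp1, which encodes an inhibitor of matrix metalloproteinases, had 2, 9, 2 and 2 counts in the controls and 560 to 1944 after cisplatin, and was called higher. Since no control had 10 counts, it too passed the filter only through the cisplatin group, and its fitted fold is not given. Fgb, which encodes a fibrinogen chain, rose by 4.87. The transcription factor genes Cebpd, Fos and Cebpb rose by 2.93, 2.58 and 2.45. Hp, Pim1, Lbp, Bcl2l1 and Birc5 also rose, by 2.78, 2.19, 1.6, 1.33 and 1.32. Hp, at 18, 9, 2 and 33 counts in controls 1, 2, 3 and 5, passed the filter only through the cisplatin group. Bcl6, which encodes a transcriptional repressor, fell by 1.86 and Vegfa, which encodes a vascular growth factor, fell by 1.52. Mcl1 and Hif1a, at 0.81 and 0.58, were not called. Many of these genes are also induced by factors other than STAT3.

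**Figure D5:**
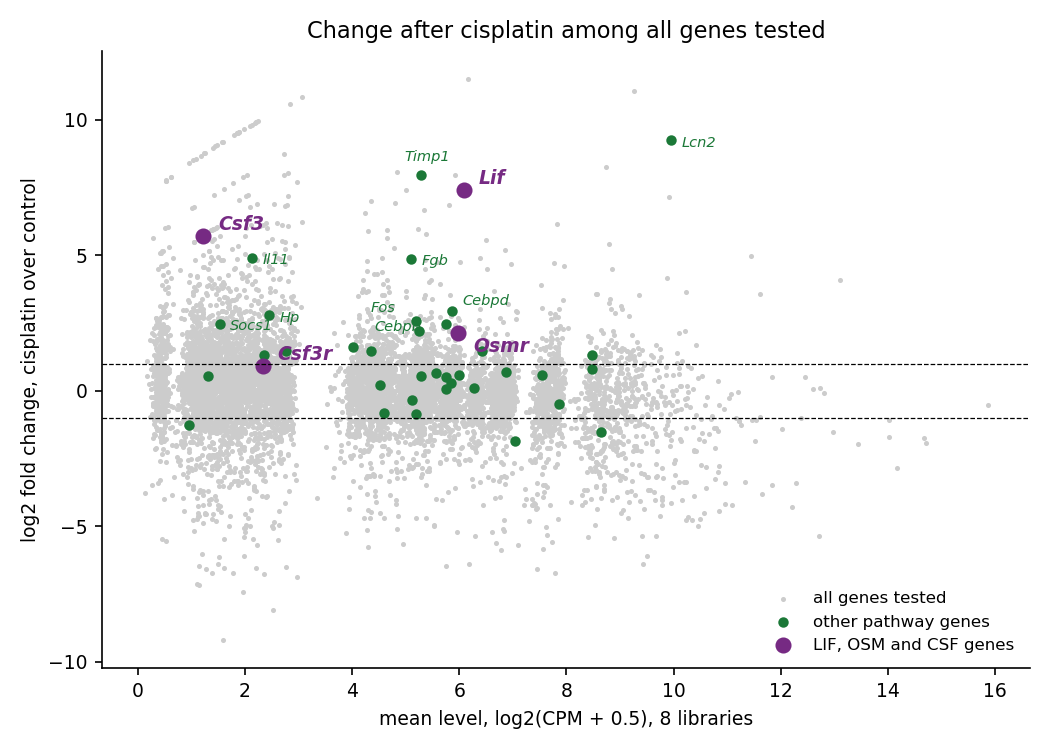
Log2 fold change against mean level, log2 (CPM + 0.5), for all 9141 genes tested, with dashed lines at the log2 fold change of 1 in each direction, the 4 genes in purple and other pathway genes in green. Lif lies at 7.41 above most of the cloud and Csf3r at 0.91 just under the line. The fitted values of Csf3, Il11 and Timp1 rest on controls under 10 counts, and those of Lif, Socs1 and Hp on controls partly under 10. The empty bands along the level axis are runs of rows with 10 values that were not used.

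The genes whose profile over the 8 libraries lay nearest to that of Lif were Atg9b, Cdkn1a, Timp1, Psrc1 and S100a6. Nearness was the mean absolute difference in log2(CPM + 0.5) after each gene's own mean was subtracted, and was 0.208 for Atg9b to 0.356 for S100a6, where the median over all genes was 3.32. With 4 libraries in each group, this measure follows mainly the size of a gene's change between the groups. The genes nearest to Lif are thus mainly genes with a like rise, and the median is large because Lif itself changed. Cdkn1a, which encodes the cell cycle inhibitor p21, went from 13.7 ± 2.91 to 1910 ± 603 CPM (SD, n = 4 each), and Atg9b, an autophagy gene, from 0.475 ± 0.183 to 120 ± 32.4 CPM (SD, n = 4 each). Lifr had no usable row, so its profile could not be used. Nearest to Osmr, used in its place and chosen after seeing the data, were Pak3, Galnt17, Col6a2, Clca3a1 and Col1a2, at 0.216 to 0.239 where the median was 1.08. This median too follows mainly the change of Osmr itself between the groups. Col6a2 and Col1a2 encode collagen chains, and their levels went from 17 ± 6.94 to 85.3 ± 49 CPM and from 78.6 ± 33.7 to 380 ± 192 CPM (SD, n = 4 each).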

How the data were processed

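The members and gene lists were chosen with earlier results of these data known. The authors deposited raw counts per gene and a gene length in bases, made per the labels with fastp and HISAT2 on GRCm38. The counting tool and strand setting are not given in the sources used here. The labels name a VAHTS Universal V8 kit that marks the second strand, whereas the methods name a GEXSCOPE kit. The table names 8 libraries. Its 35880 rows with 8 values were used, and the 17835 rows with 10 values (33.2%), which include 2 unnamed columns, were not. The rows with 8 values form 24 runs through the table. In 21 of 21 runs with at least 20 rows and a mean of at least 5 counts, each library was nearest by correlation to one of its own group. Replicates are single kidneys per the labels, and p-values measure the spread between these libraries.

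Counts were tested with edgeR 4.0.16 in R 4.3.3 (default filter, TMM, quasi-likelihood test, Benjamini-Hochberg adjustment over 9141 genes) and called where the adjusted p was under 0.05 and the log2 fold change reached 1 in either direction. The SE is the absolute log2 fold change divided by the square root of F. Levels under 3 counts were treated as unmeasurable, a floor that covers counting error only, since no molecular identifiers are described. No 2 libraries of a group agreed within sampling noise. Genes named are the usable members, the pathway genes called or tested, marker sums and the 5 nearest profiles. Pathway genes that were not called, and single markers, were named after their values were seen. A few items of the lists are not reported here and are left out of their counts. On simulated counts with an absolute log2 change of 2, edgeR recovered 87.6% of 193 changed genes and called 6 unchanged genes among 9005. The simulation changed few genes and held no library sets, so it does not give the error rate for these kidneys. Coordinates are those of GENCODE M21 and promoters are from RefSeq (GRCm38.p6). The alternatives were DESeq2 1.42.0, other normalizations, filters of none or at least 10 counts in every library, a fit without mitochondrially encoded genes and the 10 of highest abundance, a replicate block, the library sets, the cisplatin libraries without Y-linked counts, and each library left out.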

Additional observations from a re-analysis of the deposited data

Results flagged for a closer look

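In a group of 4 libraries, a library was marked where its gap to the nearest other library, as a share of the group's range, was above Dixon's 95% critical value for 4 values. This was so in 6 of 80 groups, and chance flags about 1 in 20 groups. None of the 4 genes Lif, Csf3, Osmr and Csf3r had such a library. Control 5 stood above the other controls for Csf2ra, at 34.9 CPM, and for Epor, at 5.27 CPM. Control 3 stood apart for Cebpb, at 9.93 CPM, and control 1 for Fgb, at 1.68 CPM. Among the cisplatin libraries, cisplatin 3 stood apart for Pias3, at 75.9 CPM, and cisplatin 6 for Birc5, at 12.2 CPM.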

How the results depend on the processing

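Lif and Osmr kept their direction and their call under every alternative that could test them; for Csf3, whose controls all lie under 3 counts, fitted folds are not given. Scaling by total library size alone gave 3174 genes called higher and 803 lower, 24 pathway genes higher and 1 lower (16 and 2 by TMM), and all 4 of Lif, Osmr, Csf3 and Csf3r higher, with 79.8% of calls higher against 55% by TMM, and shifted the median of all genes to 0.64; relative to that median Lif was at 7.31, Osmr at 2.06 and Csf3r at 0.85. With at least 10 counts in every library, 1101 genes and 1 of the 4 genes were called higher, since Lif and Csf3 fell below the filter. Leaving out 1 library at a time gave log2 fold changes of 7.22 to 7.54 for Lif, 1.87 to 2.38 for Osmr and 0.72 to 1.02 for Csf3r, and 4.93 to 5.62 for the Lif to Osmr log2 ratio. Csf3r reached the fold for a call without control 3, cisplatin 4 or cisplatin 6, at 1, 1.01 and 1.02.

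Both groups have a replicate 1 and a replicate 3, but these numbers pair nothing in the labels, and libraries of the same number had correlated deviations of 0.24 and 0.26, against 0.14 to 0.35 for other pairs of the first library set. With the replicate number as a block, which compares 2 libraries with 2, the log2 fold changes were 7.34 for Lif, 2.83 for Osmr and 1.06 for Csf3r. Csf3 rests on at most 72 counts, which limits its precision.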
